A study of Homo sapiens with 6 samples.

Results

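The cytosolic ribosomal proteins were followed in A549 cells, a human lung adenocarcinoma line, after depletion of NME2, a nucleoside diphosphate kinase that also binds DNA. Total RNA from 3 samples labelled NME2-depleted, transiently transfected with an siRNA duplex against NME2, and from 3 labelled control, transfected with control duplexes, was hybridised to 1 Affymetrix HG-U133 Plus 2.0 array each. All cells were of the same line, and neither the dose nor the time after transfection is known here. The series text describes the silencing as transient, and the paper's methods name both siRNA for transient depletion and stable clones made with short hairpin RNAs. Some NME2 transcript remained: the NME2 probe set, which also carries the symbol of a read-through transcript with NME1, gave signals of 1920, 3676 and 3216 on the NME2-depleted arrays, against 17862, 19389 and 21045 on the control arrays. The groups did not overlap, and the difference was -2.78 on the log2 scale (SE 0.19, adjusted p = 0.00032, limma), a 6.85-fold lower signal after depletion.

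Members were the probe sets, each a set of short oligonucleotides for a transcript, annotated with 1 gene symbol made of RPL or RPS and a number, with the endings A, X, L and P0 to P2 allowed. This rule took 117 of 54613 probe sets and 56 of 19775 genes, 35 of the large and 21 of the small ribosomal subunit. A probe set was tested when its mean log2 signal reached the median of the array, a signal of 71.7. Of the members 102 probe sets of 55 genes were tested, and RPL3L, a form of RPL3 known from skeletal and heart muscle, had none. RPL3L gave signals of 4.1, 6.0 and 3.1 on the NME2-depleted arrays, against 9.8, 22.5 and 11.7 on the control arrays, and the 15 untested probe sets had mean signals from 4.77 to 70.8. Another 15 genes (RPL4, RPL5, RPL7A, RPL10, RPL13, RPL13A, RPL17, RPL21, RPL23, RPL28, RPS2, RPS3A, RPS13, RPS20 and RPS26) matched only in probe sets that carry several symbols, often with a small nucleolar RNA of an intron. RPLP0, RPSA and RPS27A were not analysed here.

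Ribosomal proteins assemble with ribosomal RNA in the nucleolus into the subunit that decodes mRNA and the subunit that joins amino acids. Cells keep their amounts balanced, and a protein made in excess of its partners is degraded. The mRNAs are abundant, stable and short, and most begin with a 5′ terminal oligopyrimidine (TOP) tract. Through this tract the kinase complex mTORC1 and the RNA-binding protein LARP1 control their translation, so that ribosomal protein output can change with no change in mRNA level. A microarray reads the mRNA level alone. Several members also act off the ribosome, such as RPL11, which with RPL5 and a small ribosomal RNA binds the ubiquitin ligase MDM2.

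The tract was read at the annotated transcript start in RefSeq promoter sequence (GRCh38.p14), as a C at the first transcribed base followed by at least 4 more C or T. Of the 48 member genes with a listed start, 34 (70.8%) had it, against 5.14% of all 27305 listed genes and 6.24% of 15842 protein-coding genes. The tract was 5 to 19 bases long, with a median of 8. Windows of 30 bases, from 10 before to 20 from the start, are shown for members of different role and for 2 paralogs without the tract. Capitals mark the tract, and every sequence runs along the transcribed strand. The plus-strand windows lie at chr1:153990752-153990781 (RPS27), chr1:23691796-23691825 (RPL11), chr15:69452808-69452837 (RPLP1), chr19:5690285-5690314 (RPL36) and chr19:54200848-54200877 (RPS9). The minus-strand windows lie at chr9:19380217-19380246 (RPS6), chrX:119791611-119791640 (RPL39), chr15:63157458-63157487 (RPS27L) and chr14:46651762-46651791 (RPL10L).
RPS27: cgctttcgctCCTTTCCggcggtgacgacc
RPS6: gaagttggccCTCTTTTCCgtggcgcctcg
RPS9: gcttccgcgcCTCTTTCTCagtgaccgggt
RPL11: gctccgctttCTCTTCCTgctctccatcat
RPL36: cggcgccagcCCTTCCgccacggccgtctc
RPL39: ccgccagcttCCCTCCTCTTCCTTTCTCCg
RPLP1: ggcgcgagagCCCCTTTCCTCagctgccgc
RPS27L: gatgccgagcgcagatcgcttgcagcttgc
RPL10L: gtagttaagagagcgcattttgacttcgag
The longest tract, 19 bases, stood at RPL39. The remaining 14 genes without a match at the listed start were RPL3, RPL6, RPL9, RPL10A, RPL10L, RPL19, RPL27, RPL32, RPS4X, RPS7, RPS15, RPS27L, RPS28 and RPS29. This says only that no C followed by at least 4 more C or T begins at that base, and a shorter run can.

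After NME2 depletion the ribosomal protein transcripts differed little from control. With each gene represented by its tested probe set of highest mean signal, the median difference over 55 genes was 0.03 on the log2 scale, 2.01% higher after depletion, and 52 of the 55 genes lay within 0.15 of 0. The quartiles of the difference were 0.01 and 0.07 over these genes and -0.12 and 0.15 over all tested probe sets. Over 944 other probe sets with a mean log2 signal of at least 13 they were -0.05 and 0.07, so small differences were common among bright transcripts. Only the members were left out of these 944, so ribosomal protein probe sets outside the rule remained among them. No member passed the threshold of 0.05 on the adjusted p (0 of 102 probe sets, limma), where 108 of all 27307 tested probe sets (0.396%) did, 32 of them higher and 76 lower. At an unadjusted p under 0.05 there were 7 member probe sets (6.86%), 6 of them higher after depletion, beside 12.9% of all tested probe sets. The methods' t-test gave 4 member probe sets (3.92%) at the same unadjusted threshold, beside 3065 of all (11.2%), and 0 of either after adjustment. In 6 of the 102 (5.88%) the signals of the groups did not overlap, beside 18.6% of all. None of these member counts exceeded the share of the whole array.

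**Figure D1:**
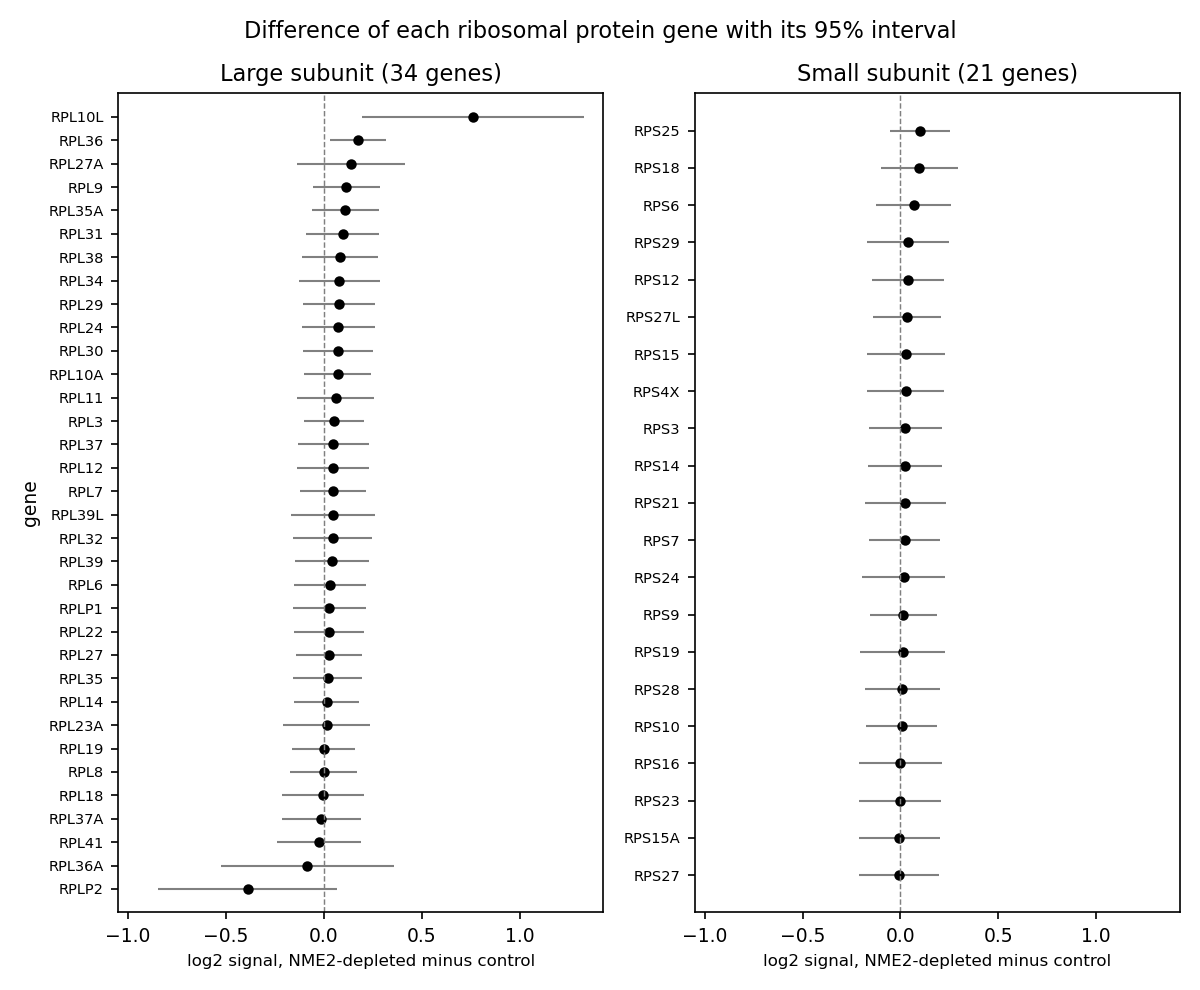
Difference in log2 signal (NME2-depleted minus control, x axis) of 55 ribosomal protein genes, 34 of the large subunit (left) and 21 of the small (right), each by its tested probe set of highest mean signal; bars are 95% intervals from limma with 3 arrays a group. RPL10L (0.76) and RPLP2 (-0.39) stand at the ends with wide intervals, and 52 genes lie within 0.15 of 0.

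The precision of the signal was high for the bright genes. Members made up 32 of the 100 brightest probe sets, and how closely signal follows mRNA amount at such brightness was not tested. In 50 of the 55 genes the mean log2 signal was at or above 13, a signal of 8192, and their differences ran from -0.03 to 0.17, or 0.982-fold to 1.13-fold. Their standard deviation across genes was 0.04. The 95% interval of every one of the 50 stayed inside a 1.25-fold change in either direction, the lowest bound being -0.24 (RPL41) and the highest 0.32 (RPL36) on the log2 scale. With every member probe set of at least that brightness counted, 69 of the same 50 genes, the standard deviation was 0.06. Their differences reached 0.47 (RPS9), and 68 of the 69 intervals stayed inside 1.25-fold. The 33 tested member probe sets under a mean log2 signal of 13 spread wider, with a standard deviation of 0.22 and a range from -0.39 to 0.76. Among them 5 intervals stayed inside 1.25-fold.

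**Figure D2:**
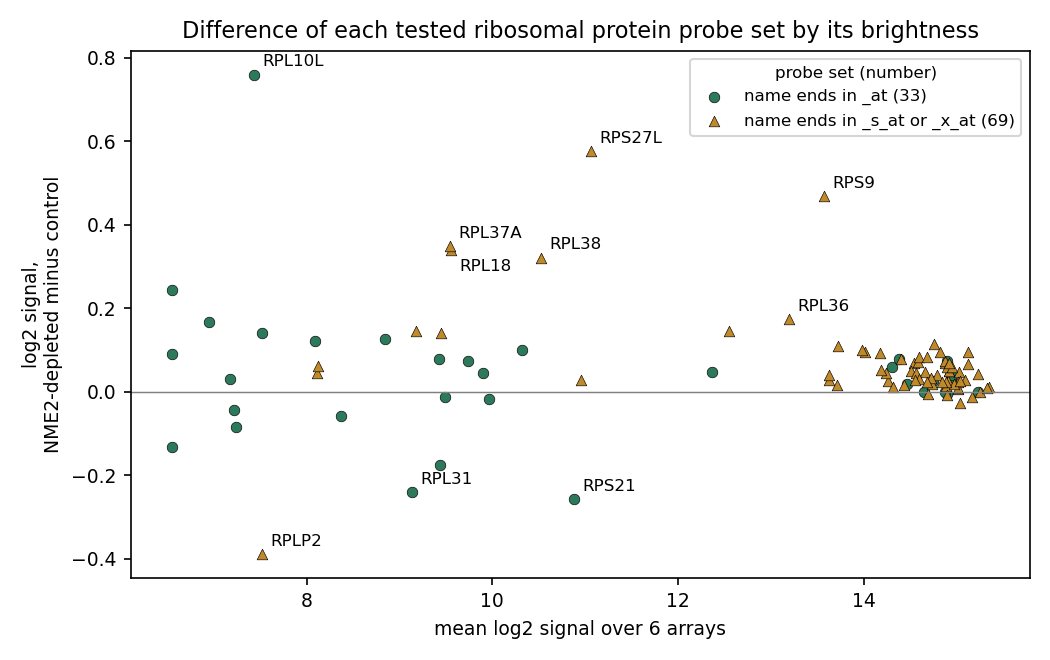
Difference in log2 signal (NME2-depleted minus control, y axis) against the mean log2 signal over the 6 arrays (x axis) for the 102 tested ribosomal protein probe sets; circles are probe sets whose name ends in _at and triangles those ending in _s_at or _x_at, which can match several transcripts. The bright probe sets crowd near 0, apart from 1 of RPS9 at 0.47 and RPL36 at 0.17, while the dimmer ones range from -0.39 to 0.76.

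A small shift in 1 direction was spread over many genes but was not larger than the spread between arrays. By mean, 44 of the 55 genes (80%) were higher after depletion, against 50.2% of all 12406 tested genes. After median centring of the arrays 37 of the 55 were lower, but centring also moved the median over all tested probe sets, from 0.01 to -0.04. The median of the member probe sets lay 0.03 above that of all tested probe sets in both settings. On the log2 scale the median over the 55 genes, relative to each gene's mean over the 6 arrays, was -0.08, -0.01 and 0.16 on the NME2-depleted arrays 1 to 3, against -0.15, 0.00 and 0.09 on the control arrays 1 to 3. The groups thus overlapped, and the range inside each group was several times the difference between them. In both groups, however, the median rose from replicate 1 to replicate 3. Between same-numbered arrays 1, 2 and 3 the median difference was 0.05, -0.00 and 0.07, with 45, 24 and 47 of the 55 genes higher after depletion. Whether same-numbered arrays share a source of this spread was not tested. NME2-depleted replicate 3 gave the highest value for 43 genes, and control replicate 1 the lowest for 42. Without NME2-depleted replicate 3 the median over the tested member probe sets was -0.02 and 40 of 55 genes were lower. Without control replicate 1 it was -0.00 and 39 genes were lower, where with all 6 arrays it was 0.04 and 11 genes were lower.

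Other bright transcripts followed the same order of arrays, over a smaller range. Their array medians ran from -0.08 to 0.07, against -0.15 to 0.16 over the 55 ribosomal protein genes. The 944 other probe sets with a mean log2 signal of at least 13 had medians of -0.05, -0.01 and 0.07 on the NME2-depleted arrays, against -0.08, 0.00 and 0.06 on the control arrays. Their median difference was 0.01, with 537 of the 944 higher after depletion. Ribosomal protein probe sets outside the members, such as those of RPL36AL, RPL22L1 and FAU, were among these 944. Over all tested probe sets the array medians stayed between -0.01 and 0.02. The ratio of the 3′ to the 5′ probe set of ACTB, a sign of RNA integrity and labelling, was 1.33, 1.34 and 1.40 on the NME2-depleted arrays, against 1.20, 1.30 and 1.23 on the control arrays (mean 1.36 ± 0.04 and 1.25 ± 0.05, SD, n = 3 each; exact two-sided permutation p = 0.1, the smallest that 3 against 3 arrays can give). For GAPDH this ratio was 1.02 ± 0.04 in NME2-depleted and 0.995 ± 0.03 in control arrays (SD, n = 3 each; exact permutation p = 0.5). Its part in the ribosomal protein values was not tested.

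**Figure D3:**
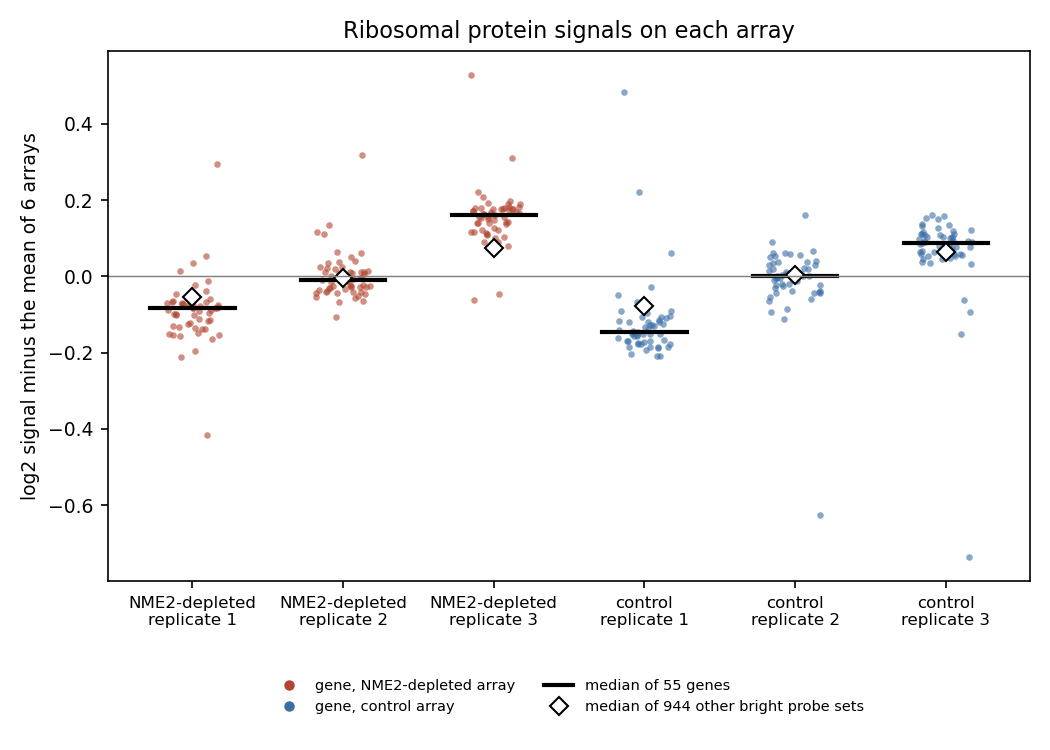
Log2 signal of 55 ribosomal protein genes on each array minus the gene's mean over 6 arrays (y axis), NME2-depleted arrays left and control arrays right; points are genes, black bars their median and diamonds the median of 944 other probe sets with a mean log2 signal of at least 13, not matched to the genes in brightness. The medians run from -0.08 to 0.16 in NME2-depleted and from -0.15 to 0.09 in control arrays, so the groups overlap. Ribosomal protein probe sets outside the members are among the 944.

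In both subunits the differences centred near 0. The 34 large subunit genes had a median difference of 0.05, with 27 higher by mean, and the 21 small subunit genes one of 0.02, with 17 higher. In the small subunit the differences ran from -0.01 to 0.10, and all 21 intervals stayed inside 1.25-fold. Genes with the TOP tract had a median of 0.03, as did the 14 without it.

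Among small subunit proteins, RPS6 is the classic substrate of the S6 kinases downstream of mTORC1. Its signals were 33515, 36418 and 40503 on the NME2-depleted arrays, against 31881, 36133 and 37346 on the control arrays, a difference of 0.07 (SE 0.09, adjusted p = 0.796). Its other tested probe sets gave 0.06 and 0.07. RPS3, which lies near the mRNA entry channel and also acts in DNA repair, differed by 0.02. RPS4X, encoded on the X chromosome, differed by 0.03, and RPS19, often mutated in Diamond-Blackfan anaemia, by 0.01. RPS14, RPS15, RPS18, RPS23 and RPS24 differed by 0.02, 0.03, 0.10, -0.00 and 0.02. RPS16 gave 35223, 38311 and 44328 on the NME2-depleted arrays, against 34866, 40707 and 42188 on the control arrays, a difference of -0.00 with an interval from -0.21 to 0.21. The small subunit gene with the highest difference was RPS25, a protein needed by some viral internal ribosome entry sites, at 0.10 (interval -0.05 to 0.26). The signals of every gene in this paragraph overlapped between the groups.

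Among large subunit proteins, RPLP1 and RPLP2 form the stalk that recruits elongation factors. RPLP1 gave 32287, 35192 and 38456 on the NME2-depleted arrays, against 31426, 35032 and 37444 on the control arrays, a difference of 0.03. RPLP2 was read only through a dim probe set here, with 137.9, 171.1 and 176.4 on the NME2-depleted arrays, against 257.5, 205.8 and 176.2 on the control arrays. The lowest control signal fell inside the range after depletion, and the difference of -0.39 had an interval from -0.85 to 0.07 (adjusted p = 0.460). RPL11, the binding partner of MDM2 named above, gave 19374, 19957 and 22942 on the NME2-depleted arrays, against 17824, 20196 and 21736 on the control arrays (difference 0.06, SE 0.09, adjusted p = 0.825). RPL3, which reaches towards the peptidyl transferase centre, differed by 0.05 (interval -0.10 to 0.20). RPL41, a very short basic peptide, had the lowest difference of the bright genes, -0.03, with 30268, 32608 and 37934 on the NME2-depleted arrays, against 30295, 35204 and 37072 on the control arrays. RPL8, RPL19, RPL23A, RPL30 and RPL37A differed by -0.00, -0.00, 0.01, 0.07 and -0.01.

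RPL36 was the bright gene with the highest difference. Its signals of 9753, 10195 and 10007 on the NME2-depleted arrays all lay above the 8437, 9340 and 8806 on the control arrays. The difference was 0.17 (SE 0.07, interval 0.03 to 0.32), or 1.13-fold, and its adjusted p of 0.299 did not pass. RPL9, RPL35A and RPL27A differed by 0.12, 0.11 and 0.14, and their groups overlapped. The probe set of RPL27A was dim, with 633.4, 713.2 and 863.7 on the NME2-depleted arrays, against 673.1, 690.6 and 627.1 on the control arrays.

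RPS27L, a paralog of RPS27 that is known as a p53-inducible gene, carried the member probe set of lowest p. Probe set 222487_s_at gave 2236, 2655 and 2988 on the NME2-depleted arrays, against 1612, 1691 and 1964 on the control arrays. All 3 NME2-depleted signals lay above all 3 control signals, and the difference was 0.58 (SE 0.11, interval 0.33 to 0.83), or 1.49-fold. Its adjusted p was 0.058, so it missed the threshold. Among the alternatives it passed, for example, with the filter raised to the 75th percentile of mean signal (adjusted p = 0.0438) and with array weights (0.0472), and the adjusted p over all alternatives ran from 0.00987 to 0.357. The difference stayed between 0.48 and 0.69 with any 1 array left out.

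The other probe sets of RPS27L did not show this difference. Probe set 218007_s_at, with the highest signal of the gene, gave 26370, 25905 and 30071 on the NME2-depleted arrays, against 25323, 26276 and 28805 on the control arrays (difference 0.03, interval -0.14 to 0.21). Probe set 238935_at gave 1514, 1169 and 1299 on the NME2-depleted arrays, against 1543, 1089 and 1112 on the control arrays (difference 0.10, interval -0.21 to 0.41). The parent gene RPS27 gave 28942, 29237 and 33757 on the NME2-depleted arrays, against 27127, 31407 and 34090 on the control arrays, a difference of -0.01. The probe sets were not mapped to transcripts here, so whether the 3 of RPS27L read the same isoform was not tested.

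**Figure D4:**
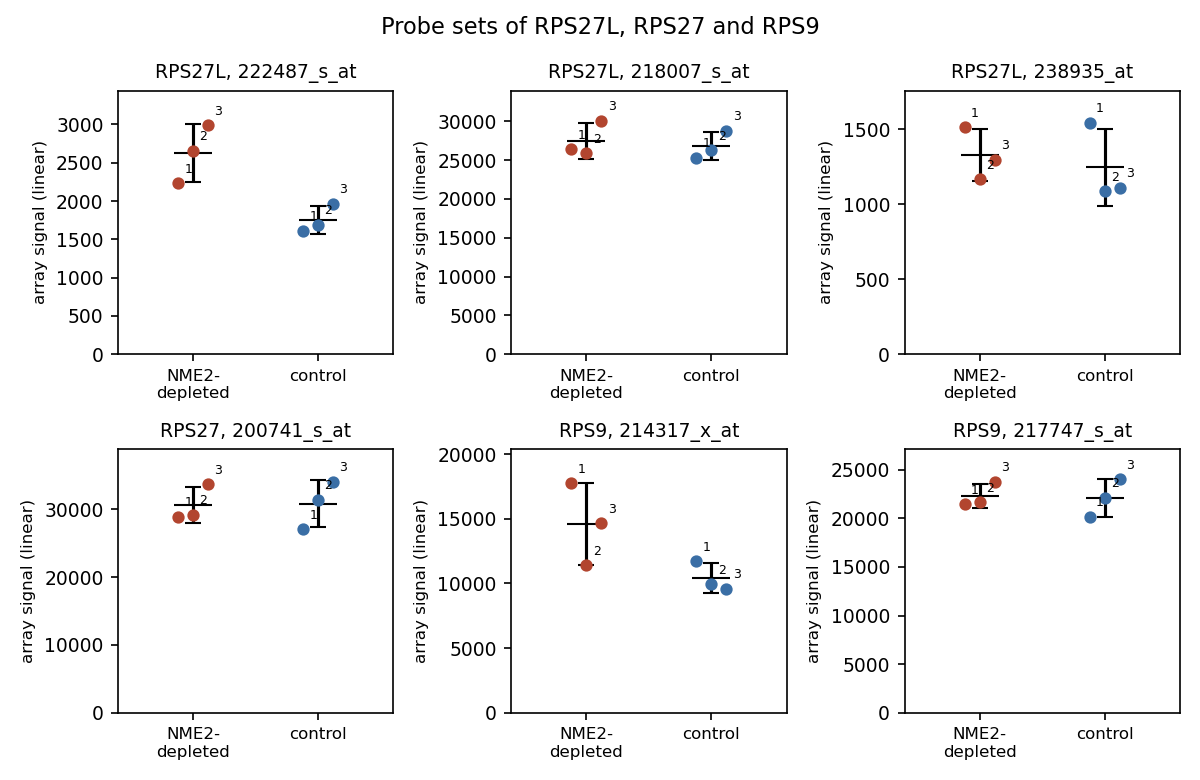
Array signal on a linear axis from 0 (y axis) for the 3 probe sets of RPS27L, the bright probe set of RPS27 and 2 of RPS9, NME2-depleted left and control right in each panel; points are arrays with their replicate number, bars the mean and SD of 3. The groups separate in RPS27L 222487_s_at (2236 to 2988 against 1612 to 1964) and overlap in the other panels.

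RPS9 also had 1 probe set apart from the other. Probe set 214317_x_at gave 17758, 11393 and 14633 on the NME2-depleted arrays, against 11710, 9933 and 9593 on the control arrays. The lowest NME2-depleted signal lay below the highest control signal, and the difference of 0.47 (SE 0.14, interval 0.17 to 0.77) had an adjusted p of 0.175. Probe set 217747_s_at of the same gene gave 21449, 21686 and 23777 on the NME2-depleted arrays, against 20156, 22129 and 24027 on the control arrays, a difference of 0.02.

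RPL38 and RPS21 also had a probe set apart from the others, higher in RPL38 and lower in RPS21 by mean. RPL38, whose loss in mice alters translation of homeobox mRNAs, gave 1595, 1460.3 and 1901 at probe set 221943_x_at on the NME2-depleted arrays, against 1334, 1312 and 1296 on the control arrays. The groups did not overlap (difference 0.32, SE 0.10, adjusted p = 0.210), but the other 2 probe sets gave 0.08 and 0.03. RPS21 gave 1689.9, 1583 and 1899.6 at probe set 214097_at on the NME2-depleted arrays, against 1946, 1895 and 2352 on the control arrays. This was a difference of -0.26 (SE 0.10, adjusted p = 0.329) with 1 NME2-depleted signal inside the control range, and the bright probe set of RPS21 gave 0.02.

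Of the 28 genes with several tested probe sets, 9 had differences of both signs (RPL18, RPL31, RPL37, RPL37A, RPS14, RPS15A, RPS16, RPS21 and RPS28). In 3 genes of the 9 the probe sets spanned over 0.3. RPL31 gave 520.7, 508.3 and 521.1 at probe set 200962_at on the NME2-depleted arrays, all below the 669.8, 594.1 and 571.2 on the control arrays (difference -0.24, adjusted p = 0.395). Its other probe sets gave 0.15 and 0.10. RPL18 gave 0.34 (adjusted p = 0.347) at a dim probe set, 222297_x_at, and -0.00 at its bright one. RPL37A likewise gave 0.35 (adjusted p = 0.403) at 214041_x_at and -0.01 at its bright probe set. The groups of RPS15A also did not overlap at probe set 235309_at, with 703.9, 587.3 and 666.0 on the NME2-depleted arrays, against 755.7, 735.6 and 715.0 on the control arrays (difference -0.18, adjusted p = 0.532).

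In each of these genes the probe set that stood apart was not the brightest of the gene. Over all members, 63 of the 69 probe sets whose names mark possible sharing between transcripts were higher by mean, with a median of 0.05, and 20 of the 33 others, with a median of 0.03. Ribosomal protein genes have many processed pseudogenes, and which copies such a probe set reads was not tested.

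RPL10L, an intronless copy of RPL10 known from the testis, had the largest difference of any tested member. Its only probe set gave 212.3, 215.8 and 249.8 on the NME2-depleted arrays, against 202.0, 112.2 and 104.0 on the control arrays. All NME2-depleted signals were higher, by a narrow margin over control replicate 1. The difference of 0.76, or 1.69-fold, had a wide interval from 0.19 to 1.33 (SE 0.26, adjusted p = 0.246). Without control replicate 1 it was 1.06 (adjusted p = 0.0898). RPL39L, a copy of RPL39 also known from male germ cells and tumours, gave 941.7, 1049.6 and 926.2 on the NME2-depleted arrays, against 937.4, 884.6 and 1006 on the control arrays. It differed by 0.04, as did RPL39 itself. RPL36A was read through a dim probe set with a difference of -0.08 and an interval from -0.53 to 0.36.

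The 4 paralogs whose names lie outside the rule were measured beside the members. RPL7L1, which acts in ribosome assembly, gave 4158, 4568 and 4469 on the NME2-depleted arrays, all above the 3964, 3939 and 3956 on the control arrays, a difference of 0.15. RPL26L1, RPL22L1 and RPL36AL differed by 0.15, 0.07 and -0.04, and none of the 4 passed the threshold. FAU, a fusion of a ubiquitin-like protein with a small subunit protein, differed by 0.04.

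No gene around ribosomal protein synthesis passed the threshold (0 of 13, 15, 12 and 5 tested in the 4 lists that follow, limma). At an unadjusted p under 0.05 the lists held 0, 1, 0 and 2 genes (AKT1S1, CDKN1A and CDKN2A), where 12.9% of all tested probe sets passed. Among 13 translation factors and related proteins with TOP mRNAs, 9 were higher and 4 lower by mean, with a median of 0.02. EEF2, the elongation factor that moves the ribosome along the mRNA, differed by 0.14, and EEF1A1, which brings aminoacyl-tRNA, by 0.02. Of 15 genes of the mTORC1 and S6 kinase pathway, 7 were higher and 8 lower, with a median of -0.01. AKT1S1, an inhibitor of mTORC1, gave 1866, 2272 and 2169 on the NME2-depleted arrays, all below the 2439, 2387 and 2490.4 on the control arrays (difference -0.22, adjusted p = 0.319). EIF4EBP1, which blocks the cap-binding factor EIF4E, differed by 0.17 (adjusted p = 0.389), and its relative EIF4EBP2 by -0.26 (adjusted p = 0.430). RPS6KB1, the kinase of RPS6, and LARP1 differed by 0.07 and 0.11.

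Chaperones and importers that escort ribosomal proteins were balanced, with 6 of 12 higher, 6 lower and a median of -0.02. TNPO1 and IPO7, importins that carry ribosomal proteins into the nucleus, differed by -0.13 and -0.08. Of the 5 tested genes of the response to free ribosomal proteins, 3 were higher and 2 lower. MDM2, the ligase that RPL11 binds, differed by 0.11. CDKN1A, a cell cycle inhibitor under p53, gave 7241, 5720.4 and 6167 on the NME2-depleted arrays, against 8839, 6856 and 7463 on the control arrays (difference -0.27, adjusted p = 0.312). CDKN2A, which encodes inhibitors of cell cycle kinases and of MDM2, had dim signals of 98.8, 131.4 and 202.7 on the NME2-depleted arrays, all above the 31.2, 87.2 and 43.0 on the control arrays (difference 1.50, SE 0.41, adjusted p = 0.149).

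The labelled line was checked against markers. All 6 epithelial markers were above the signal limit, with summed signals of 74012 to 81010 in NME2-depleted and 75537 to 82809 in control arrays. These sums rest mainly on keratins, and in 3 of the 6 the groups did not overlap: EPCAM differed by 0.71 (adjusted p = 0.0884), CDH1 by 0.21 (0.324) and KRT8 by -0.24 (0.209). Of the leukocyte markers 2 of 4 passed the limit, of the fibroblast markers 3 of 6 and of the endothelial markers 2 of 5. The leukocyte sums were 314.7 to 443.4 in NME2-depleted and 370.5 to 461.4 in control arrays. Fibroblast sums were 786.5 to 964.9 in NME2-depleted and 602.5 to 798.7 in control arrays. Endothelial sums were 575.4 to 679.9 in NME2-depleted and 319.5 to 401.0 in control arrays, without overlap and mostly through ESAM, an adhesion molecule, and their part in the ribosomal protein values was not tested.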

How the data were processed

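The authors labelled cRNA from 6 RNA samples and hybridised each to 1 array. The deposited values are linear intensity signals per probe set, made with GCOS 1.1.1 per the labels. Trimmed means (2% at each end) were 500.06 to 500.07 on every array, so the arrays had been scaled to 1 mean, and a shift common to all transcripts cannot be seen. For the siRNA supplier the series text (Santa Cruz) and the paper's methods (Dharmacon) differ. Arrays have no read depth, and 3 per group limits the precision. The series text calls replicates biological without describing separate cultures, and p-values reflect only how these arrays varied.

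Of 54675 probe sets 62 controls were left out. Signals under 1 were set to 1, log2 was taken, and the 27307 probe sets at or above the median entered limma 3.58.1 under R 4.3.3 (eBayes with intensity trend), with two-sided Benjamini-Hochberg p-values over all of them. The annotation of 2016 gave 1 symbol to 41091 probe sets, several to 1801 and none to 11721. Named genes were those past the threshold, the 6 highest and 6 lowest differences, the 3 brightest and 3 dimmest members, set roles and paralogs, probe sets at odds, and up to 3 of lowest p per list; further genes were chosen after their values were seen. Members and lists were chosen with earlier results of these data known. The code was tested on simulated data. Start sites came from RefSeq promoters (GRCh38.p14).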

Additional observations from a re-analysis of the deposited data

How the results depend on the processing

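No result changed sign while past the threshold. Ribosomal protein calls stayed at 0 under cyclic loess, quantile normalization, an offset, median centring, no filter, shared probe sets left out, no intensity trend, robust variance, the adjusted t-test, each array left out and, chosen after seeing the data, probe sets with several symbols added. They became 1 with the filter at the 75th percentile and 1 with array weights (RPS27L in both), and 4 by the methods' t-test unadjusted (RPL31, RPL36, RPL38 and RPS27L). Calls among all tested probe sets, 108 here, were 30 with no filter, 192 with the 75th percentile filter, 61 without shared probe sets, 0 with no intensity trend, 3065 by the unadjusted t-test, 0 by the adjusted t-test and 19 to 70 with 1 array left out. Median centring gave 20 higher and 107 lower calls, against 32 and 76. Ribosomal protein genes with a lower mean, 11 of 55 here, were 37 after median centring and 2 to 40 with 1 array left out. The median difference of the member probe sets ran from -0.02 to 0.09. Median centring also lowered the median over all tested probe sets, from 0.01 to -0.04, and the members stayed 0.03 above it. The cause of the other changes was not tested. Among 35 named probe sets, 16 changed sign under at least 1 alternative while never past the threshold.

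The titles number the replicates, but same-numbered arrays correlated by only 0.11, 0.08 and 0.07 in their deviations, so the numbers were not taken to pair them, though over all tested probe sets every array correlated best with its own number. Over the 55 ribosomal protein genes the same-numbered correlations were -0.02, -0.03 and -0.05, and no array correlated best with its own number. A correlation across genes leaves out any shift that all genes of an array share. It therefore cannot show whether the common shift of the ribosomal protein genes follows the number. Their medians rose with the number in both groups, from -0.08 to 0.16 in NME2-depleted and from -0.15 to 0.09 in control arrays. The replicate block gave 464 calls in all and 2 among ribosomal protein probe sets, RPS27L (adjusted p = 0.00987) and RPS9 (0.0248).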
